A study of Mus musculus with 6 samples.

Results

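ETS factors are transcription factors that share a DNA-binding domain reading the core sequence GGAA, and myeloid progenitors rely on several of them at once. The 10 ETS genes described here, out of 34199 gene symbols counted, were taken by symbol from a list drawn up with earlier results of these data known. They are Sfpi1, which encodes PU.1, together with Spib, Ets1, Ets2, Elf1, Elf4, Fli1, Etv6, Gabpa and Elk3. All 10 were present in the count tables. A total of 9 passed the filter on low counts and were tested, and Spib was not.

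RNA was profiled by bulk RNA-seq in Lys-GFP-ER-HoxA9 cells, a mouse C57Bl/6 granulocyte-macrophage progenitor (GMP) line kept self-renewing in stem cell factor by HOXA9 fused to an estrogen receptor domain. All cells thus carry the HOXA9 fusion, which needs estradiol to act. In CAF-1 OFF, cells in 150 ng/ml estradiol received 500 µM IPTG for 24 h, inducing a hairpin that targets Chaf1b, the gene for part of the CAF-1 complex that loads histones onto new DNA. The control was IPTG-treated for 24 h in the same estradiol, and the study's control vector carries a spacer sequence in place of that hairpin. In HOXA9 OFF, estradiol was washed out for 24 h, so the fusion was inactive. The labels did not give the clone of any library or say whether HOXA9 OFF received IPTG, so estradiol, IPTG and clone cannot be told apart in comparisons with HOXA9 OFF. Nor can the hairpin and the clone be told apart in CAF-1 OFF against control. Each group had 2 libraries. The study mentions independent sub-clones for RNA-seq at other times but does not tie these libraries to separate cultures or clones, so p-values measure only the spread between these libraries, which may be technical.

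PU.1 sets myeloid against lymphoid fate by its dose. It opens genes for growth factor receptors, integrins and the phagocyte oxidase, and cooperates with C/EBP, RUNX and IRF factors. SPI-B is its close relative in B cells and plasmacytoid dendritic cells. ELF1 and ELF4 form another branch, active in blood stem cells, lymphocytes and endothelium. FLI1 drives megakaryocyte genes, and ETV6 is a repressor needed for blood stem cells. GABPA pairs with a GABPB subunit at housekeeping and mitochondrial promoters. ELK3 is a partner of serum response factor that can repress its targets.

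Gene reads per library ranged from 16773560 to 25170898, so that 3 counts equalled 0.118 to 0.182 CPM (counts per 1000000 gene reads, here with TMM-scaled library sizes). Chaf1b was at 17.8 and 12.1 CPM in CAF-1 OFF against 89.9 and 105 CPM in control and 64.6 and 61.3 CPM in HOXA9 OFF, so the knockdown matched its labels. Estradiol withdrawal acts on the fusion protein, and Hoxa9 reads were present in all 6 libraries, at 204 to 276 CPM in control and CAF-1 OFF and at 356 and 362 CPM in HOXA9 OFF. The Hoxa9 log2 fold change was 0.55 in HOXA9 OFF against control (edgeR FDR 0.0535), not called, and CAF-1 OFF was called lower than HOXA9 OFF (-0.60, edgeR FDR 0.0412). All 7 GMP markers were expressed. In HOXA9 OFF against control edgeR called 4 of the 7 lower and 0 higher, where 22% of all genes were called in either direction. The median log2 fold change of the 7 was -0.68. Those called were Flt3 (-6.05), Cd34 (-1.86), Kit (-1.16) and Ctsg (-0.68). The log2 fold changes of Mpo (0.53), Elane (0.76) and Prtn3 (0.59) were positive and not called. The markers thus did not move as 1 set. The 4 called lower fell in the same libraries as the ETS and PU.1 target changes given below, and their part in those changes was not tested. The T cell markers Cd3e, Cd3g and Cd8a and the endothelial markers Kdr and Emcn were at 0 in all 6 libraries. Of the B cell, T cell and endothelial markers listed, the highest were Cd79b (29.1 to 55.8 CPM) and Pecam1 (235 to 443 CPM), which myeloid cells can also express. The B cell markers summed to 36.4 and 52.5 CPM in control, from 33.6 to 47.4 CPM for CAF-1 OFF, and from 51.6 to 60.3 CPM for HOXA9 OFF. Since these are bulk samples, fewer cells of a type and less RNA per cell cannot be told apart.

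ETS factors read GGAA, and some ETS genes hold ETS sites in their own promoters. The RefSeq promoter table (GRCm38.p6, 250 bases before to 50 after a start site) matched 7 of the 10 genes, with 9 windows. Those not matched were Sfpi1, Ets1 and Fli1. Matching used only the symbols given here, and no other gene names were tried, so a promoter listed under another name would be missed. The core GGAA, on either strand, stood in 96.0% of all 32851 promoter windows of this length, so its presence sets no window apart. A longer ETS form, CCGGAAG, stood in 8.86% of them, and the PU.1-type form GAGGAAG in 13.6%, counting both strands. Of the 9 windows only that of Gabpa held either, with CCGGAAG on the reverse strand 93 bases before the start and GAGGAAG on the forward strand 113 bases before it. The motifs TGTGGT (RUNX type, 16.8% of promoters) and GATAA (GATA type, 25.4%) were in none of the 9 windows, and CCAAT (37.4%) was in those of Spib and the second start of Elf1. The windows below are shown for Gabpa, which alone holds the longer forms, and for the related pair Elf4, called in HOXA9 OFF, and Elf1, not called, with GGAA and its complement TTCC in capitals. The window of Gabpa is chr16:84834874-84835173 on the plus strand, that of the first Elf1 start chr14:79480944-79481243 on the plus strand, and those of Elf4 chrX:48454270-48454569 and chrX:48463083-48463382 on the minus strand.
Gabpa: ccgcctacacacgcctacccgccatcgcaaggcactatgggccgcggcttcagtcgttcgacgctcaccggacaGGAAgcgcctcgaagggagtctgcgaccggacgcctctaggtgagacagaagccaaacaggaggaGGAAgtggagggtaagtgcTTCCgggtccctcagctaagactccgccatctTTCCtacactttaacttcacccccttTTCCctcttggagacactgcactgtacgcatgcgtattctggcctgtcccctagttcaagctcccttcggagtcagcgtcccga
Elf1: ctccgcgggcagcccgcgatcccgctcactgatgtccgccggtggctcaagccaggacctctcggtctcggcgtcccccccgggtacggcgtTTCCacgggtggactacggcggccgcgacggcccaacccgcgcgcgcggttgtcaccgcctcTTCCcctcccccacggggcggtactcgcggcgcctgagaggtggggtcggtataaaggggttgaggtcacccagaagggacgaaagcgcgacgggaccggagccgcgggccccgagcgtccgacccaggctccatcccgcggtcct
Elf4 first window: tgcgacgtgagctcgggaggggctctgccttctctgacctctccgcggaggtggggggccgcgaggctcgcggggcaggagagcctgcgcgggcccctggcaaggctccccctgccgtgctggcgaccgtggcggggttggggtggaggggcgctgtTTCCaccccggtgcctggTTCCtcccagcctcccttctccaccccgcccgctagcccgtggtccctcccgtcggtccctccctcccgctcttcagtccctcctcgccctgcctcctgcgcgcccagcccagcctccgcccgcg
Elf4 second window: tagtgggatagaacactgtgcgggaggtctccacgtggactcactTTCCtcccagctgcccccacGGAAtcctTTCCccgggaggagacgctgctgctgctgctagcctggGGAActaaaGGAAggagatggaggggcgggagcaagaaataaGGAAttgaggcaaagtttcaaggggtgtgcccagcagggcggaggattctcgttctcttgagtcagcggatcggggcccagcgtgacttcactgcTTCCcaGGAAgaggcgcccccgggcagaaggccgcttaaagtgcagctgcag

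The second Elf4 window held 8 GGAA cores, against 2 in the first Elf4 window, 2 in the first Elf1 window and 5 in that of Gabpa. A match to these letters is a description of the window and not a bound site.

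The first question was whether ETS genes had changed 24 h after CAF-1 suppression. None of the 9 genes tested was called in CAF-1 OFF against control at 1.5-fold and a false discovery rate (FDR) under 0.05, by edgeR's quasi-likelihood test adjusted over all 12460 genes tested. The same rule called 4 genes in all, or 0.0321%. At an unadjusted p under 0.05 the count of these 9 genes was also 0, against 1330 of all genes, and DESeq2 called 0 of them. Both libraries of one group lay beyond both of the other for 2 of the 9, Elf1 and Ets2, each lower in CAF-1 OFF, where 40.1% of all genes did so in either direction. The median log2 fold change of the 9 was 0.07, against -0.004 for all genes, and it turned to -0.02 without the second CAF-1 OFF library and -0.04 without the second control library, fits in which Spib also passed the filter.

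After estradiol withdrawal, Sfpi1, Elf4 and Fli1 rose, and they were the 3 of 9 genes called in HOXA9 OFF against control. Of all genes tested, 2740 (22%) were called, so the share of called ETS genes should be read against that figure. In 7 of the 9 the libraries of the groups did not overlap, 6 higher in HOXA9 OFF and 1 (Elk3) lower, where the figure for all genes in either direction was 71%. The median log2 fold change of the 9 was 0.38, against -0.003 for all genes, and with Spib among the genes fitted it was 0.72 without the first control library. Compared directly, CAF-1 OFF was lower than HOXA9 OFF for those same 3 genes and higher for 0 of the 9 by call, while 2755 genes (22.1%) were called. In this comparison 7 of the 9 did not overlap, 6 of them lower in CAF-1 OFF, where 66.7% of all genes did not overlap. The control libraries enter both comparisons with control, so the 2 sets of values are not independent.

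**Figure D1:**
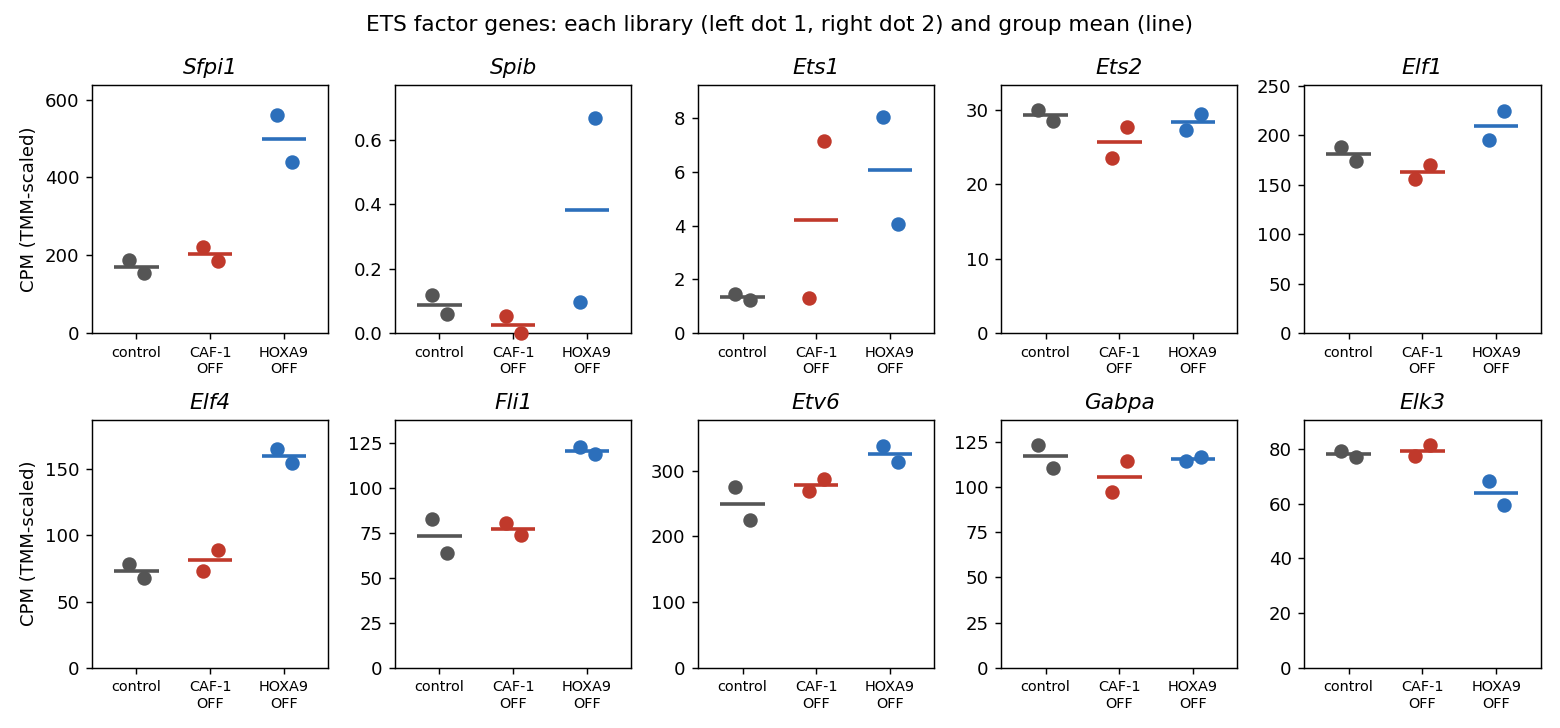
CPM of each of the 10 ETS genes (vertical axis, starting at 0, different in each panel) in the 2 libraries of control, CAF-1 OFF and HOXA9 OFF, with a line at each group mean. Sfpi1, Elf4 and Fli1 stand higher in both HOXA9 OFF libraries than in the other 4, and for Ets1 the second CAF-1 OFF library stands apart from the first.

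Sfpi1 (PU.1; NCBIM37 chromosome 2, 90922547 to 90955913, plus strand, protein coding) was at 187 and 155 CPM in control, 220 and 185 CPM in CAF-1 OFF, and 559 and 439 CPM in HOXA9 OFF. Control and CAF-1 OFF overlapped, and both HOXA9 OFF libraries lay above all others. The log2 fold change in HOXA9 OFF against control was 1.55 ± 0.17 (SE, edgeR FDR 0.00162), from 171 ± 23.0 to 499 ± 84.9 CPM (SD, n = 2). In CAF-1 OFF it was 0.24 ± 0.16 (edgeR FDR 0.656), with a 95% interval of -0.15 to 0.63. The direct difference between CAF-1 OFF and HOXA9 OFF was -1.30 ± 0.17 (edgeR FDR 0.00278). The call in HOXA9 OFF held without each library in turn.

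Spib, the B cell relative of PU.1, lay at or near the counting floor. Its counts were 3 and 1 in control, 1 and 0 in CAF-1 OFF, and 2 and 11 in HOXA9 OFF. Only the second HOXA9 OFF library exceeded 3 counts, at 0.666 CPM, and Spib did not pass the filter on low counts. Fitted without that filter, its edgeR FDR was 0.888 in CAF-1 OFF against control, 0.366 in HOXA9 OFF against control and 0.106 in the direct comparison, so it was not called. It was also not called in the fits without 1 library in which it passed the filter. It lies on chromosome 7, 51781365 to 51787441, on the minus strand.

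Elf1 was the ETS factor that the study examined by motif, binding and knockdown, the last in both CAF-1 OFF and HOXA9 OFF cells. The study reported no significant change in Elf1 expression early in CAF-1 depletion. Elf1 lies on chromosome 14, 79881001 to 79982283, and shares 75 bases of exon (1.73%) with Wbp4 on the other strand. It was at 189 and 174 CPM in control, 156 and 170 CPM in CAF-1 OFF, and 195 and 225 CPM in HOXA9 OFF. The 3 groups did not overlap, with CAF-1 OFF lowest and HOXA9 OFF highest. Neither difference from control was called: the log2 fold change against control was -0.16 ± 0.11 in CAF-1 OFF (edgeR FDR 0.681, 95% interval -0.43 to 0.11) and 0.21 ± 0.11 in HOXA9 OFF (edgeR FDR 0.211). Elf1 mRNA in CAF-1 OFF was thus within the interval of no change, and the upper bound of that interval was 0.11. The direct difference of -0.37 ± 0.11 had an edgeR FDR of 0.05005 and fell short of 1.5-fold, so it was not called.

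Elf4, which encodes an activator related to ELF1, lies on the X chromosome at 45764223 to 45816309, on the minus strand. It was at 78.4 and 67.9 CPM in control, 73.3 and 89.1 CPM in CAF-1 OFF, and 165 and 154 CPM in HOXA9 OFF. Control and CAF-1 OFF overlapped, and HOXA9 OFF lay above all 4. The log2 fold change was 1.13 ± 0.14 in HOXA9 OFF (SE, edgeR FDR 0.00214) and 0.15 ± 0.13 in CAF-1 OFF (edgeR FDR 0.748), and the direct difference was -0.98 ± 0.14 (edgeR FDR 0.00346). Leaving out any 1 library did not end the call in HOXA9 OFF or in the direct comparison.

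Fli1 (chromosome 9, 32229793 to 32348974, minus strand) encodes an activator of megakaryocyte and endothelial genes. It was at 82.8 and 64.1 CPM in control, 80.7 and 73.7 CPM in CAF-1 OFF, and 123 and 119 CPM in HOXA9 OFF. Both CAF-1 OFF libraries lay within the range of control, and HOXA9 OFF lay above. The log2 fold change was 0.72 ± 0.14 in HOXA9 OFF (edgeR FDR 0.0111) and 0.07 ± 0.14 in CAF-1 OFF (edgeR FDR 0.903), with a direct difference of -0.65 ± 0.14 (edgeR FDR 0.0163). The HOXA9 OFF call was lost without the second control library (0.55, edgeR FDR 0.0651) or without the first HOXA9 OFF library (0.69, edgeR FDR 0.0615). The direct call was lost without the second CAF-1 OFF library (-0.56, edgeR FDR 0.0602), the first HOXA9 OFF library (-0.62, edgeR FDR 0.0847) or the second (-0.67, edgeR FDR 0.0638), and with scaling to library size alone (-0.57), which was under 1.5-fold.

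Ets1, the founding member of the family and mainly a lymphoid factor, lies on chromosome 9 at 32443806 to 32565405. It was low, with 37 and 21 counts in control, 25 and 141 in CAF-1 OFF, and 167 and 67 in HOXA9 OFF. In CPM these were 1.45 and 1.22, 1.30 and 7.14, and 8.05 and 4.06. The first CAF-1 OFF library matched control and the second lay within the range of HOXA9 OFF. The log2 fold change in CAF-1 OFF of 1.65 ± 0.76 (edgeR FDR 0.507) became -0.03 without the second CAF-1 OFF library. In HOXA9 OFF it was 2.17 ± 0.77 (edgeR FDR 0.0743), not called. Ets1 was called without either CAF-1 OFF library (2.17 each, edgeR FDR 0.0114 and 0.0134), with only the 4 libraries compared (2.17, edgeR FDR 0.0129), without the expression filter (2.17, edgeR FDR 0.000169) and by DESeq2 (2.18, adjusted p = 0.0160). The direct difference was -0.52 ± 0.71 (edgeR FDR 0.617). It was called without the second CAF-1 OFF library (-2.20, edgeR FDR 0.0363) and was positive without the first (0.23) or without the first HOXA9 OFF library (0.06).

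The library that set Ets1 apart also held more Irf8, which encodes a monocyte and dendritic cell factor that binds DNA with PU.1. Irf8 was at 32.9 and 86.0 CPM in CAF-1 OFF, against 35.6 and 26.9 CPM in control and 178 and 175 CPM in HOXA9 OFF. Whether both genes moved for a shared reason in that library was not tested.

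Ets2, a target of mitogen-activated kinases, was at 30.0 and 28.5 CPM in control, 23.6 and 27.7 CPM in CAF-1 OFF, and 27.3 and 29.4 CPM in HOXA9 OFF. It lies on chromosome 16 at 95923682 to 95942658. Its log2 fold changes against control were -0.19 ± 0.14 for CAF-1 OFF and -0.05 ± 0.14 for HOXA9 OFF (edgeR FDR 0.677 and 0.834). The CAF-1 OFF libraries lay below both controls by less than the test could tell from the spread.

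Etv6 (chromosome 6, 133985718 to 134220176), the repressor, was at 275 and 224 CPM in control, 270 and 286 CPM in CAF-1 OFF, and 338 and 313 CPM in HOXA9 OFF. HOXA9 OFF lay above the other 4 libraries. The log2 fold change there was 0.38 ± 0.12 (edgeR FDR 0.0588), under the 1.5-fold minimum, and in CAF-1 OFF it was 0.16 ± 0.12 (edgeR FDR 0.716). Its exons share 135 bases (2.26%) with the transcript Gm17089.

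Gabpa (chromosome 16, 84835170 to 84864024, plus strand) overlaps Atp5j on the other strand over 397 bases of exon, or 6.98%. It was at 123 and 111 CPM in control, 97.0 and 114 CPM in CAF-1 OFF, and 114 and 117 CPM in HOXA9 OFF. Control overlapped both other groups, and the CAF-1 OFF libraries lay just below those of HOXA9 OFF. The log2 fold changes were -0.15 ± 0.12 in CAF-1 OFF, with a 95% interval of -0.43 to 0.13, and -0.02 ± 0.12 in HOXA9 OFF, with an interval of -0.30 to 0.26. The edgeR FDR values were 0.717 and 0.922.

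Elk3 (chromosome 10, 92710159 to 92773880, minus strand) shares 316 bases of exon (6.95%) with Cdk17. It was at 79.4 and 77.2 CPM in control, 77.3 and 81.4 CPM in CAF-1 OFF, and 68.3 and 59.5 CPM in HOXA9 OFF. It was the one tested gene of the 9 with both HOXA9 OFF libraries below all others. The log2 fold change was -0.29 ± 0.11 in HOXA9 OFF (edgeR FDR 0.0907), not called, and 0.02 ± 0.11 in CAF-1 OFF (edgeR FDR 0.971).

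**Figure D2:**
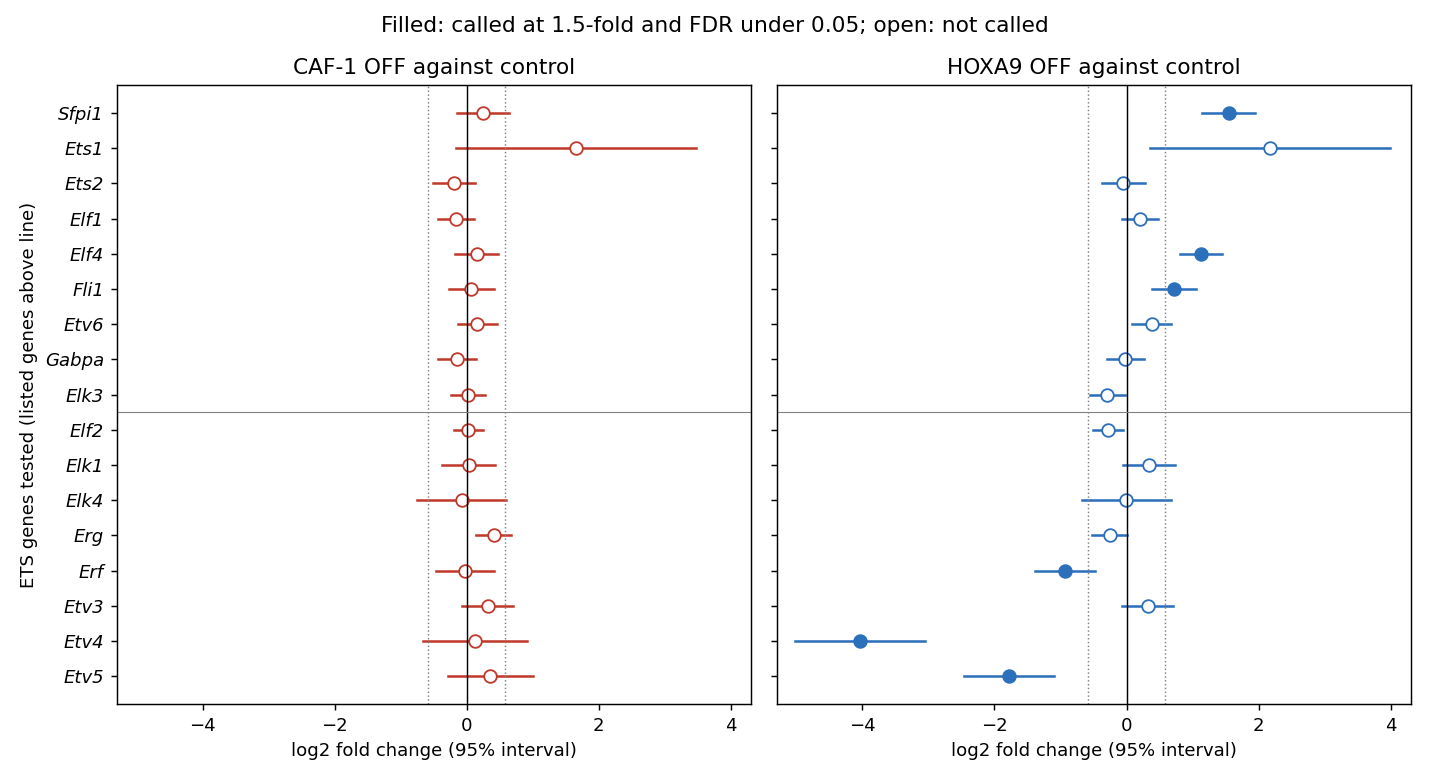
Log2 fold change (horizontal axis) with its 95% interval for the 17 ETS genes tested, in CAF-1 OFF against control (left) and HOXA9 OFF against control (right); filled points were called, and dotted lines mark 1.5-fold. In CAF-1 OFF all 17 points are open, and in HOXA9 OFF Sfpi1, Elf4 and Fli1 are filled above 0 and Etv4, Etv5 and Erf below.

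The rest of the family was examined in a list of 16 further ETS genes, of which 8 were tested. Ehf, Fev, Etv1, Spic and Spdef were at 0 counts in all 6 libraries, and Elf3, Elf5 and Etv2 did not exceed 3 counts in any. In CAF-1 OFF against control 0 of the 8 were called, with 1 at an unadjusted p under 0.05, and DESeq2 called 0. That gene was Erg, a stem cell and megakaryocyte factor closely related to FLI1. It was at 96.4 and 93.3 CPM in CAF-1 OFF against 74.1 and 69.0 CPM in control, which did not overlap, and its log2 fold change was 0.41 ± 0.11 (edgeR FDR 0.300).

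In HOXA9 OFF, 3 of the 8 fell and 0 rose (22% of all genes were called), with a median log2 fold change of -0.26 over the 8. Etv4 and Etv5, growth factor-responsive relatives of each other, were among them. Etv4 went from 21.4 and 15.3 CPM in control to 0.82 and 1.45 CPM in HOXA9 OFF, a log2 fold change of -4.03 ± 0.41 (edgeR FDR 0.00137). Etv5 went from 26.8 and 16.0 to 6.99 and 5.39 CPM, a change of -1.79 ± 0.29 (edgeR FDR 0.00538). Both stayed at 14.5 CPM or more in CAF-1 OFF. The third was Erf, a repressor held in check by kinase signalling, at -0.93 ± 0.19 (edgeR FDR 0.0125). Its call was lost without the second control library (-0.88, edgeR FDR 0.0693) or the second HOXA9 OFF library (-0.78, edgeR FDR 0.0685). Compared directly, where 22.1% of all genes were called, CAF-1 OFF was higher than HOXA9 OFF for 4 of the 8, namely Etv4 (4.15), Etv5 (2.14), Erf (0.91) and Erg (0.66, edgeR FDR 0.00697), on the log2 scale. The direct calls of Erf (0.76, edgeR FDR 0.0758) and Erg (0.57, edgeR FDR 0.0565) were lost without the second HOXA9 OFF library. The 3 higher and 3 lower calls of HOXA9 OFF among the 17 ETS genes stood under all 3 scalings tried.

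Levels can be compared between genes only per length, and for that CPM per kilobase of exon was used. In control, Sfpi1 was the most abundant ETS transcript at 63.5 CPM per kilobase. Elf1 (42.0) and Etv6 (41.7) followed and overlapped each other. Below these came a set of similar levels, with neighbours overlapping, of Elf2 (24.0), Fli1 (23.6), Gabpa (20.6) and Erg (20.6). Elk3 stood at 17.2, Elf4 at 11.9, Ets2 at 6.21, Ets1 at 0.208 and Spib at 0.0309 CPM per kilobase.

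In CAF-1 OFF, Sfpi1 (75.1), Etv6 (46.5) and Elf1 (37.6 CPM per kilobase) led and did not overlap, and Erg came next at 27.2. In HOXA9 OFF, Sfpi1 stood at 185 CPM per kilobase, followed by Etv6 (54.4), Elf1 (48.5), Fli1 (38.9) and Elf4 (26.0). Sfpi1 made up 21.1% and 20.1% of the summed ETS level of the 26 genes in control, 24.4% and 21.2% in CAF-1 OFF, and 43.3% and 38.1% in HOXA9 OFF. The summed level was 329 and 286 CPM per kilobase in control, 334 and 323 in CAF-1 OFF, and 480 and 428 in HOXA9 OFF. Without Sfpi1 the sum was 260 and 228 in control, 253 and 255 in CAF-1 OFF, and 272 and 265 in HOXA9 OFF. Most of the higher sum in HOXA9 OFF therefore lay in Sfpi1 itself.

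**Figure D3:**
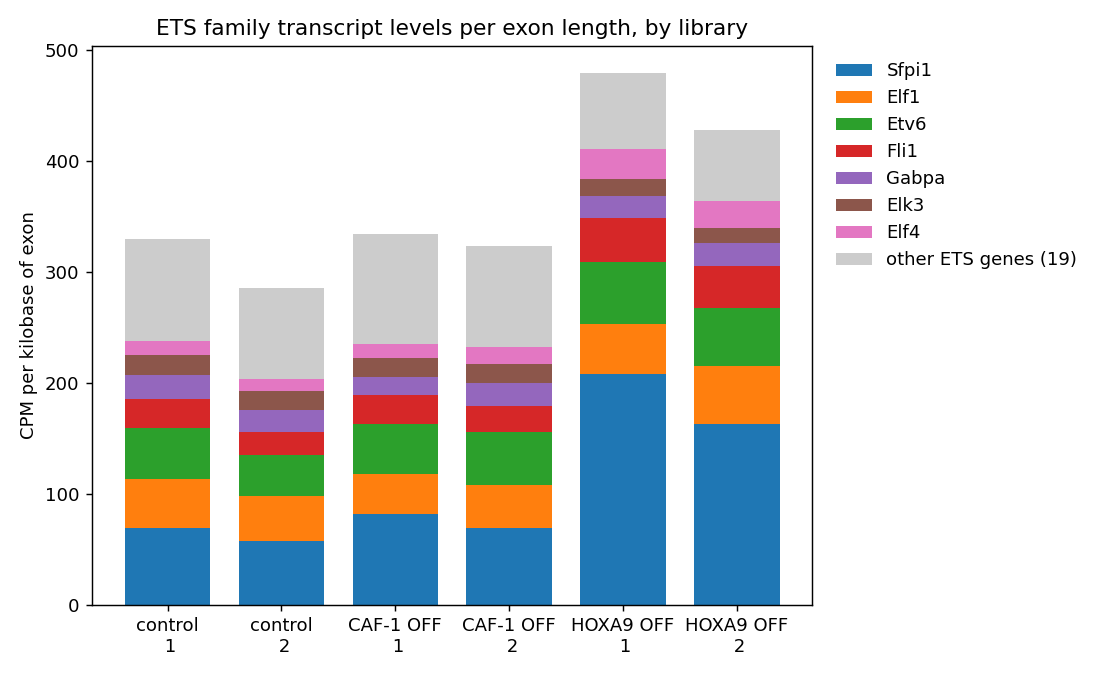
Stacked level per exon length (vertical axis, CPM per kilobase of exon) of ETS genes in each of the 6 libraries, with 7 genes coloured and the remaining 19 pooled in grey. The Sfpi1 block takes 43.3% and 38.1% of the HOXA9 OFF bars and 20.1% to 24.4% of the other 4, while the height above it differs less.

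Over the 6 libraries, the genes most like Sfpi1 were Dgat1, Lta4h and Paqr7, by root mean square difference of log2 CPM centred on each gene's mean, among 9613 genes whose mean CPM reached 5. The differences were 0.05, 0.07 and 0.07. Dgat1 makes triglyceride, and Lta4h makes leukotriene B4. For example, Lta4h was at 311 and 253 CPM in control, 341 and 311 CPM in CAF-1 OFF, and 1025 and 754 CPM in HOXA9 OFF. For Elf1 the most alike were 2700078E11Rik, Ap1m1 and AI987944, with differences of 0.02, 0.03 and 0.04. Such likeness over 6 libraries in 3 groups rests mainly on the group means and the shared libraries.

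Partners with which ETS proteins bind DNA were examined in a list of 16 genes, all tested. In HOXA9 OFF against control 6 rose and 3 fell, where 22% of all genes were called in either direction. The median log2 fold change was 0.10, and it lay between 0.05 and 0.15 without 1 library and at 0.02 with scaling to library size alone. Those that rose included the PU.1 partners Irf4 (6.20 ± 0.40, edgeR FDR 0.000375) and Irf8 (2.49 ± 0.41, edgeR FDR 0.00605). They also included Runx1 (1.48 ± 0.13), Jun (1.81 ± 0.28), Gata1 (1.81 ± 0.45) and Cebpb (0.74 ± 0.19). Irf4 went from 0.236 and 0.696 CPM in control to 29.2 and 35.5 CPM. Those that fell were the progenitor factors Gfi1 (-0.80 ± 0.11), Tal1 (-0.85 ± 0.12) and Myb (-0.68 ± 0.10).

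The calls of Cebpb and Gata1 depended on single libraries. Cebpb was lost when either control library or either HOXA9 OFF library was left out (0.58 to 0.91, edgeR FDR 0.0606 to 0.151), and Gata1 without the second control library (1.43) or the first HOXA9 OFF library (1.46). The GABP partner subunit genes Gabpb1 and Gabpb2 were at -0.24 ± 0.10 and 0.15 ± 0.21 in HOXA9 OFF, not called. In CAF-1 OFF against control 0 of the 16 were called, with 1 (Cbfb) at an unadjusted p under 0.05. DESeq2 called 0, and edgeR without the expression filter called 1, against 1.9% of all genes. Of the 16, in the direct comparison with 22.1% of all genes called, CAF-1 OFF was higher for Gfi1, Myb and Tal1 and lower for Irf4, Irf8, Jun and Runx1. The Irf8 difference of -1.57 was not called without either HOXA9 OFF library (-1.55 and -1.58, edgeR FDR 0.0806 and 0.0708). It was -1.03 without the first CAF-1 OFF library and -2.40 without the second, called in each.

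Known PU.1 target genes were taken as a list of 12, all tested, because they report on myeloid genes that PU.1 can open. In HOXA9 OFF against control 10 of the 12 rose, 0 fell, and Tlr4 and Btk were not called, where 22% of all genes were called in either direction. Their median log2 fold change was 1.92. Csf1r, the receptor for macrophage colony-stimulating factor, went from 4.04 and 4.24 CPM in control to 215 and 292 CPM (log2 fold change 5.94 ± 0.26). Itgam, which encodes CD11b, went from 25.1 and 15.5 to 513 and 404 CPM (4.49 ± 0.32). The oxidase subunit gene Cybb went from 0.314 and 0.058 CPM, or 8 counts and 1 count, to 51.9 and 23.1 CPM (7.46 ± 0.66). The others that rose were Ctss (5.68), Itgb2 (2.55), Cd14 (2.12), Csf2ra (1.72), Csf3r (1.43), Fcgr1 (1.38) and Ncf1 (1.27). Cybb kept its call without each library in turn, but its log2 fold change was 9.18 without the first control library, 6.88 without the second and 6.77 without the first HOXA9 OFF library. Fcgr1 lost its call without either control library (1.05 and 1.77), without the second HOXA9 OFF library (0.71) and without either CAF-1 OFF library (1.38 each).

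In CAF-1 OFF against control 0 of the 12 PU.1 targets were called by edgeR, with 4 at an unadjusted p under 0.05. The share of all genes called was 0.0321%. DESeq2 called 2 as higher, against 1.54% of all genes, as did edgeR without the expression filter, against 1.9%. The median log2 fold change was 0.26, and it was 0.49 without the first CAF-1 OFF library and 0.46 without the first control library. Values at an unadjusted p under 0.05 included Itgb2 at 87.0 and 71.7 CPM in control and 123 and 160 CPM in CAF-1 OFF (0.83 ± 0.17, edgeR FDR 0.199). They also included Cybb at 1.82 and 2.83 CPM in CAF-1 OFF (3.45 ± 0.72, edgeR FDR 0.199). For both, the CAF-1 OFF libraries lay above control and below HOXA9 OFF. Btk was among the 4 in the other direction (-0.26 ± 0.10, edgeR FDR 0.438). Compared directly, CAF-1 OFF was the lower group for 9 of the 12 and the higher for 0, with a median of -1.53, where 22.1% of all genes were called in either direction.

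**Figure D4:**
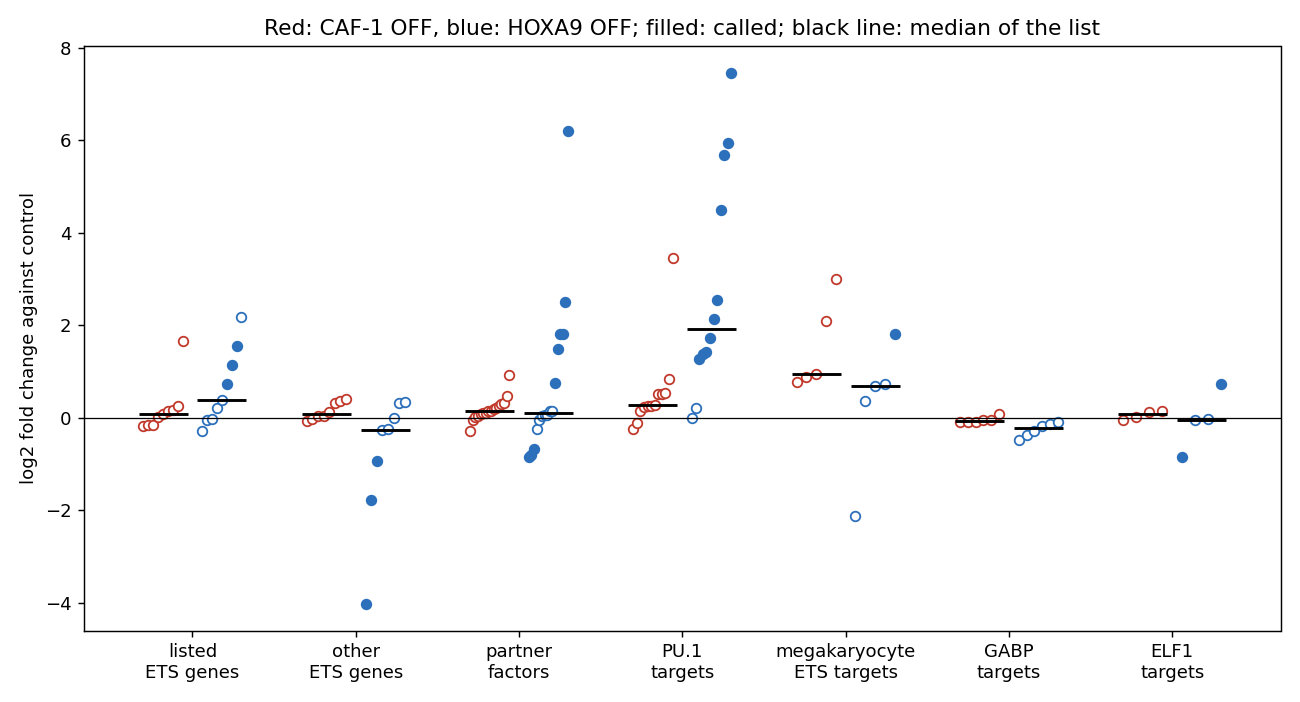
Log2 fold change against control (vertical axis) of each tested gene in the ETS list and 6 related lists, in CAF-1 OFF (red) and HOXA9 OFF (blue); filled points were called and black lines are list medians. In HOXA9 OFF 10 of 12 PU.1 targets are filled, with a median of 1.92, and in CAF-1 OFF every point is open.

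Megakaryocyte genes bound by FLI1, ERG and GABPA formed a list of 6, of which 5 were tested. Gp6 was at 0 counts in all libraries. In CAF-1 OFF against control 0 were called by edgeR, with 3 at an unadjusted p under 0.05, where 0.0321% of all genes were called. DESeq2 called 1, against 1.54% of all genes, and edgeR without the expression filter called 3, against 1.9%, all higher. The median log2 fold change was 0.94, and it was 0.58 without the first CAF-1 OFF library and 1.49 without the first control library. Pf4, a platelet chemokine, was at 14.2 and 9.21 CPM in CAF-1 OFF against 2.63 and 2.84 CPM in control, and had 56 and 106 counts in HOXA9 OFF, the higher of these 6.42 CPM. The CAF-1 OFF libraries lay above the other 4, and the log2 fold change was 2.09 ± 0.44 (edgeR FDR 0.199). Itga2b, which encodes CD41, was at 43.4 and 20.2 CPM in CAF-1 OFF against 16.4 and 16.8 CPM in control (0.94 ± 0.33, edgeR FDR 0.381).

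In HOXA9 OFF, where 22% of all genes were called, Itga2b was the 1 gene of the 5 called, at 53.8 and 62.2 CPM (1.80 ± 0.33, edgeR FDR 0.00847).

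The GABP targets, 6 genes of mitochondrial respiration and mitochondrial DNA expression, gave 0 calls in all 3 comparisons, where the shares of all genes called were 0.0321% for CAF-1 OFF, 22% for HOXA9 OFF and 22.1% for the direct comparison, and 1 (lower in HOXA9 OFF than control) without the first HOXA9 OFF library. Their median log2 fold change was -0.07 in CAF-1 OFF (0.02 without the second control library), with 0 of 6 at an unadjusted p under 0.05, and DESeq2 called 0. In HOXA9 OFF the median was -0.23, with 2 of 6 at an unadjusted p under 0.05 and 0 called by DESeq2. Tfam, which packages mitochondrial DNA, was at 92.0 and 92.2 CPM in control and 72.2 and 60.3 CPM in HOXA9 OFF (-0.47 ± 0.12, edgeR FDR 0.0269), under the fold minimum.

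Of 5 genes listed as ELF1 targets, 4 were tested, and Tek did not exceed 1 count in any library. The study mapped ELF1 binding at a later time than these libraries, and this list was not matched to those sites. In CAF-1 OFF against control 0 were called, 0 had an unadjusted p under 0.05, and DESeq2 called 0. Their median log2 fold change was 0.08, and it was -0.14 without the first CAF-1 OFF library, 0.17 without the second, and 0.16 and 0.01 without the first and second control library. Lmo2 was at 274 and 193 CPM in CAF-1 OFF, set against 227 and 198 CPM for control, and Lyl1 was at 206 and 166 CPM against 188 and 178 CPM, with overlap in each. In HOXA9 OFF, where 22% of all genes were called, 1 gene rose, the kinase gene Lyn (0.72 ± 0.11, edgeR FDR 0.00491), and 1 fell, Tal1, which is also in the partner list. In the direct comparison Lyn was called lower for CAF-1 OFF (-0.59 ± 0.11, edgeR FDR 0.0102), a difference so near 1.5-fold that both other scalings ended the call (-0.58 and -0.51). The call was also lost on leaving out any library except the first CAF-1 OFF library. Without the first HOXA9 OFF library the difference (-0.60) was still past 1.5-fold.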

How the data were processed

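Bulk RNA-seq of 6 libraries was used, 2 each of CAF-1 OFF, control and HOXA9 OFF, grouped by sample title. Per the study's methods and the labels, the authors used STAR for alignment to mm9 and HTSeq-count for counting, and the deposited values are raw counts per gene symbol. The kit marks strand, but which annotation, strand option and overlap rule were used for counting is not given in the sources used here, so overlapping genes are uncertain. Each table held 34199 gene symbols and 5 tally rows of reads assigned to no gene, which were kept out of library sizes and tests. Reads or alignments in the tally rows made up 50.2% to 53.9% of all rows' counts.

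Differences were tested by edgeR 4.0.16 under R 4.3.3 (filterByExpr, factors from the trimmed mean of M-values, TMM, of 0.954 to 1.03, quasi-likelihood fit to all 6 libraries, 1 mean per group), which tested 12460 genes. A call needed 1.5-fold or more and a Benjamini-Hochberg FDR below 0.05 over all genes tested. Standard errors come from the quasi-likelihood F statistic, and n is 2 libraries per group. Pairs of same-group libraries differed by more than sampling noise, so none was treated as 1 library deposited more than once. Alternatives used DESeq2 1.42.0, other scalings, filters and cutoffs, and leaving out libraries one by one. The fit was tested on simulated data with known changes.

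The members and gene lists were chosen with earlier results of these data known. All members are named, and genes of the other lists where they were called in any comparison or where their level was needed. Other genes named in the text for values at an unadjusted p under 0.05, absence or overlap were chosen after their values were seen. Gene coordinates and exon lengths are from GENCODE M1 on NCBIM37, the assembly that mm9 names, and promoters from RefSeq on GRCm38.p6. Coordinates of these builds are not interchangeable. Floors of 3 counts cover counting error only. Some genes of the lists are counted in them but not reported here by name.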

Additional observations from a re-analysis of the deposited data

How the results depend on the processing

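The count of called ETS genes in CAF-1 OFF against control was 0 under all settings run except without an expression filter, where it was 1 (Ets1, log2 fold change 1.64, edgeR FDR 0.0361). It was 0 without each library in turn. In HOXA9 OFF against control it was 2 to 4 without each library in turn, and in the direct comparison 2 to 3. At 2-fold and an FDR under 0.01 the direct count was 1 (Sfpi1). Some log2 fold changes that were not called changed sign when 1 library was left out. In CAF-1 OFF against control these were Fli1 (range -0.092 to 0.27), Ets1 (-0.030 to 2.40) and Elk3 (-0.0019 to 0.051). In HOXA9 OFF against control they were Gabpa (-0.096 to 0.054) and Ets2 (-0.097 to 0.0034), and in the direct comparison Ets1 (-2.20 to 0.23). Ets1 turned on the second CAF-1 OFF library in the comparison with control. In the direct comparison it turned on the first CAF-1 OFF library (0.23) and on the first HOXA9 OFF library (0.06). The cause was not tested. Where a group keeps 1 library, that library is assumed to vary like the other groups.

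Over all genes, calls in CAF-1 OFF against control numbered 4, and 378 without a filter, 192 with DESeq2, 9 with only the 4 libraries compared, 2 with the replicate block and 0 at 2-fold and an FDR under 0.01. Without 1 library they ranged from 0 (second CAF-1 OFF or first control library left out) to 10 (either HOXA9 OFF library left out), with 1 without the second control and 8 without the first CAF-1 OFF library. The 2740 calls in HOXA9 OFF against control became 1602 without the second control and 1750 without the first HOXA9 OFF library, whose absence also took the direct comparison from 2755 to 1711. At 2-fold and an FDR under 0.01 the calls numbered 987 in HOXA9 OFF against control and 948 in the direct comparison. Scaling to library size alone moved the share of called genes that were higher from 59.2% to 50.4% in HOXA9 OFF and from 43.2% to 52.5% in the direct comparison, with medians over all genes of -0.08 and 0.08.

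Replicate numbers shared by the groups were not stated to pair the cultures, and deviations of same-numbered libraries correlated at -0.178 (CAF-1 OFF and control), 0.456 (control and HOXA9 OFF) and 0.033 (CAF-1 OFF and HOXA9 OFF). With the replicate block the called ETS genes numbered 0, 3 and 3, as without it. A block with crossed numbers, chosen after seeing the data, called 71 genes in CAF-1 OFF against control and 0 of the ETS genes. The same block called 2 of the PU.1 targets in that comparison. Spib entered only fits that its low counts passed, and was called in 0 of them, and Ets1 rested on 21 to 167 counts a library.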
